A study of Mus musculus with 2 samples.

Results

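The cells described here are the neutrophils of 1 mouse brain library, the one titled positive. They are 131 of its 10842 cell barcodes (1.21%, exact Clopper-Pearson 95% interval 1.01 to 1.43%). The members were chosen by their own counts: a barcode was taken as a neutrophil when it held at least 30 unique molecular identifiers (UMIs, each counting 1 captured RNA molecule) of S100a8 plus S100a9, at least 4 of Csf3r, Cxcr2 and Retnlg together, at most 1 of Csf1r and at most 8 of Epcam, Krt8 and Krt18 together. Those 9 genes therefore describe how the cells were found and support nothing else. Another 48 barcodes passed the first 3 limits and failed only the last, on carcinoma keratins and Epcam, which makes 179 without it.

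The series holds 2 single-cell RNA libraries of Balb/c mouse brain, 1 per group, made on a Singleron GEXSCOPE chip as part of a mouse model of breast cancer spread to the brain. The titles call 1 library control and the other positive. The treatment field contradicts the titles: for the sample titled control it records metastasis of 4T1 (a Balb/c mammary tumour line used as a model of triple-negative breast cancer), and for the sample titled positive it records none. Both are therefore named by title only. Carcinoma cells, gated on at least 20 UMIs of Epcam, Krt8 and Krt18 with few leukocyte UMIs, made up 5383 barcodes of the titled positive library (49.6%) and 0 of 10417 of the titled control library, where a count of 0 allows up to 0.0288%. For the number of animals per library, their age and any cell sorting, the sources used here give nothing. With 1 library per group no difference was tested, and all intervals cover counting error only.

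Neutrophils are short-lived phagocytes made in the bone marrow, where they pass from dividing promyelocytes and myelocytes to mature cells that no longer divide. Their granules are filled in that order: primary granules with the serine proteases and myeloperoxidase at the promyelocyte stage, secondary granules with lactoferrin, cathelicidin and neutrophilic granule protein at the myelocyte stage, and tertiary granules with gelatinases later. In mice, S100a8 and S100a9 form calprotectin, the main protein of the neutrophil cytosol, and healthy brain tissue holds few neutrophils outside its vessels and borders.

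S100a8 was found in all 131 members, with 15, 890 and 2927 UMIs as the lowest, median and highest value. S100a9 was found in 127, with 0, 424 and 1423 UMIs. Retnlg, a resistin-like protein of granulocytes, was found in 121, with 0, 15 and 166 UMIs. Csf3r, the receptor of granulocyte colony-stimulating factor, was found in 56 with at most 7 UMIs, and BC100530, a stefin that took no part in the gate, in 122 with 0, 108 and 475 UMIs. Of these markers only BC100530 was outside the gate, and the presence of the others followed from the choice of members.

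The 4 limits removed cells in steps of 373, 211, 179 and 131 barcodes. At the carcinoma limit, 5 members held 8 UMIs of its 3 genes and 3 barcodes just outside held 9. At the receptor limit, 12 members held 4 UMIs and 9 barcodes just outside held 3. No member held exactly 30 UMIs of S100a8 plus S100a9, and the 3 nearest to that limit held 32, 35 and 38. The 48 barcodes stopped by the carcinoma limit held a median of 54.5 UMIs of its genes and 11588 UMIs in all, near the 10659 of carcinoma cells and above the 5563 of members. In them S100a8 plus S100a9 reached 35298 CPM (UMIs of the genes scaled to 1000000 UMIs of the class), against 233114 CPM in the members and 391 CPM in carcinoma cells. Scrublet called 4 of the 48 and 3 of the 131 members doublets.

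**Figure D1:**
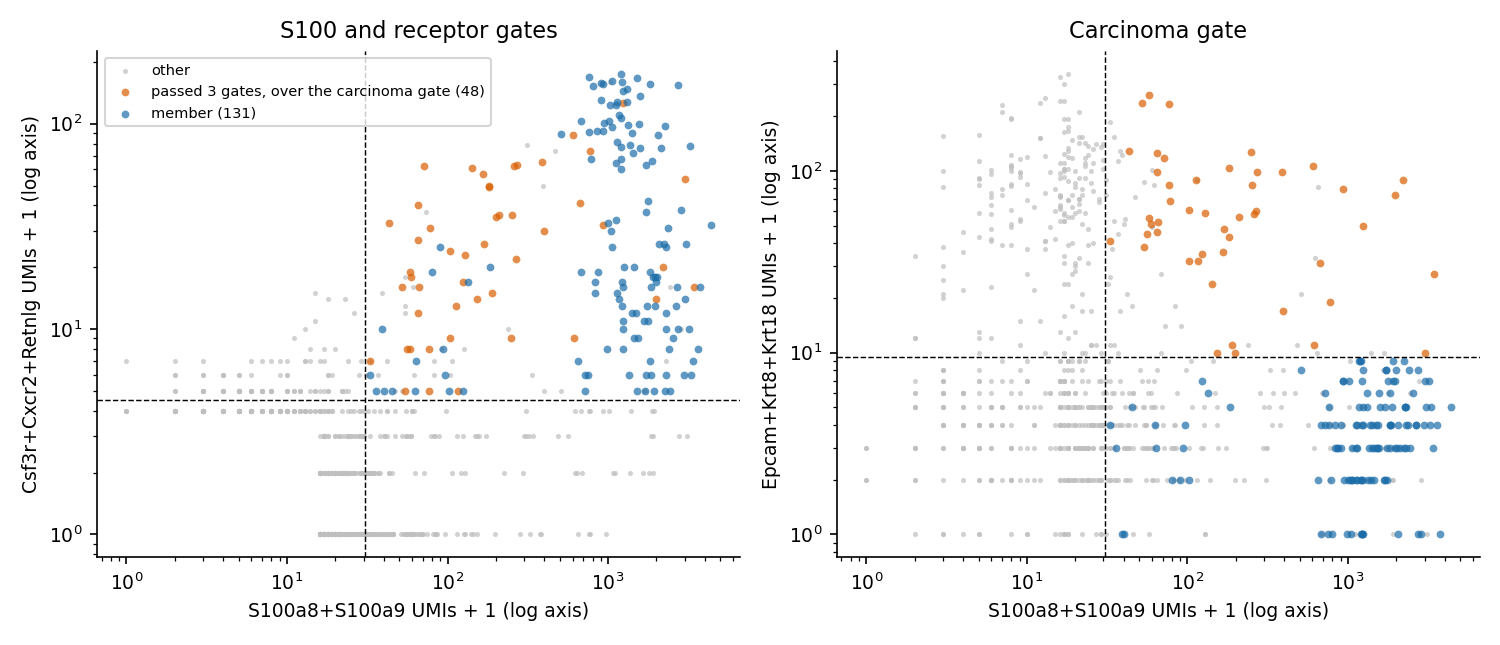
UMIs of S100a8 plus S100a9 (x) against those of the 3 receptor-gate genes (y, left) and of the 3 carcinoma-gate genes (y, right), all plus 1 on log axes, 1 point per barcode of the titled positive library with at least 15 S100 UMIs or 3 receptor-gate UMIs. The 131 members are blue, the 48 barcodes stopped only by the carcinoma limit are orange, other barcodes are grey and dashed lines mark the limits. Members spread from 32 to 4350 S100 UMIs around a median of 1308, and only a few lie near the limit of 30.

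Members held a median of 5563 UMIs (3221 to 24990) and 1525 genes (916 to 4610), 822650 UMIs in all. They detected fewer genes than the 1245 mononuclear phagocytes of the library, the nearest myeloid class, which held a median of 5767 UMIs and 2004 genes. Of the 149 barcode sequences that occur in both libraries, 4 were members. Without them BC100530 stood at 19919 CPM in place of 20521 and Camp at 14104 in place of 14010.

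Markers of other cell types were looked for in every member after thinning each to 2000 UMIs. More than 10 UMIs of another type's list were found in 22 members: 10 for macrophages, 6 for endothelial cells, 5 for oligodendrocytes, and 1 each for NK cells, fibroblasts and carcinoma cells, some of them for more than 1 list. No member passed the limit for the other 8 lists. All 7 measured genes of mast cells and basophils were at 0, as were Cd79a, Ms4a1 and Pax5 of B cells. The summed list for macrophages stood at 1595 CPM in members and 18086 in mononuclear phagocytes. That for oligodendrocytes stood at 1670 CPM in members, 835 in mononuclear phagocytes and 49089 in oligodendrocytes. The endothelial list stood at 1338 CPM in members and 710 in mononuclear phagocytes. Lists for dendritic cells, T cells, NK cells, fibroblasts and carcinoma cells were also higher in members than in mononuclear phagocytes. The remaining lists, among them those for microglia and astrocytes, were lower. Of the 15 members in which S100a8 and S100a9 made up under 5% of UMIs, 11 were among these 22. Some values below are also given without the 22.

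The promoters of the genes that mark these cells were read from RefSeq on GRCm38.p6, up to 250 bases before the start site. Of 7 stefin A genes looked up, 5 had an entry (Gm5483 under its newer RefSeq name Cstdc4), and all 12 S100 and granule genes had one. All 5 stefin promoters hold the same run of 13 bases, shown in capitals, which begins 32 to 36 bases before the start site. They are shown because these genes were high together in the cells, except Stfa1, which had 21 UMIs in all. The run was picked after the promoters were compared, so its share among all promoters is a description. Of 27025 promoters in the table, 7 (0.0259%) hold this run on either strand.
Gm5483 (chr16:36184130-36184211, plus strand): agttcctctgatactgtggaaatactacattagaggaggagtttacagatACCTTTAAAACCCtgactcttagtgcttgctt
Stfa1 (chr16:36277065-36277147, plus strand): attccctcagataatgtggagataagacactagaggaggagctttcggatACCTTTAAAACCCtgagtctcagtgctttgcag
Stfa2 (chr16:36408364-36408445, minus strand): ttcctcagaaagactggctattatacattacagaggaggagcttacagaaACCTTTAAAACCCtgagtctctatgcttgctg
Stfa2l1 (chr16:36156725-36156810, plus strand): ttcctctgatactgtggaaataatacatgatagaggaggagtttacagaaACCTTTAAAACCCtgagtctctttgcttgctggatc
Stfa3 (chr16:36455393-36455476, minus strand): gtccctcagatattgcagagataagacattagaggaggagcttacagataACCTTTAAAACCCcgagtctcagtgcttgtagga

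Among the 12 S100 and granule promoters, 6 hold TTGCNNAA on either strand, letters of the motif bound by C/EBP factors, against 9.55% of all promoters. They belong to S100a9, Ngp, Ltf, Lcn2, Retnlg and Mmp8. Of the 5 stefin promoters 1 holds it (Stfa1). The motif was chosen with the level of Cebpe, the C/EBP factor of secondary granule genes, already known, and a match describes letters, not binding. GAGGAAGT, letters of the motif bound by PU.1, is in 4 of the 12 (S100a8, Elane, Mpo and Mmp8) in 0 of the 5 and in 2.44% of all promoters. The windows of 3 secondary granule genes follow, with the TTGCNNAA match in capitals.
Ngp (chr9:110419650-110419697, plus strand): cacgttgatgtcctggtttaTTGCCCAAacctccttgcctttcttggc
Ltf (chr9:111019197-111019244, plus strand): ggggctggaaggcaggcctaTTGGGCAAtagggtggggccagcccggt
Lcn2 (chr2:32387928-32387975, minus strand): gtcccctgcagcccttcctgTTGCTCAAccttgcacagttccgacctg

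A few genes held much of the RNA. S100a8 (158332 CPM) and S100a9 (74782 CPM) made up 23.3% of all member UMIs, and 0.556%, 26.7% and 39.2% of the UMIs of the lowest, median and highest member. The 20 genes of highest level made up 38.9%. Outside the gate genes the highest were Ngp (22188 CPM), BC100530 (20521 CPM), Lcn2 (16140 CPM), Camp (14010 CPM), Tmsb4x (11245 CPM), Anxa1 (9608 CPM), Ifitm6 (7893 CPM), Fth1 (7117 CPM), Gm5483 (6928 CPM) and Actb (4935 CPM). These are counts of molecules, not divided by gene length. Ngp, Lcn2 and Camp encode secondary granule proteins, Anxa1 encodes annexin A1, an abundant lipid-binding protein of neutrophils, and BC100530 and Gm5483 belong to the stefin A cluster.

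**Figure D2:**
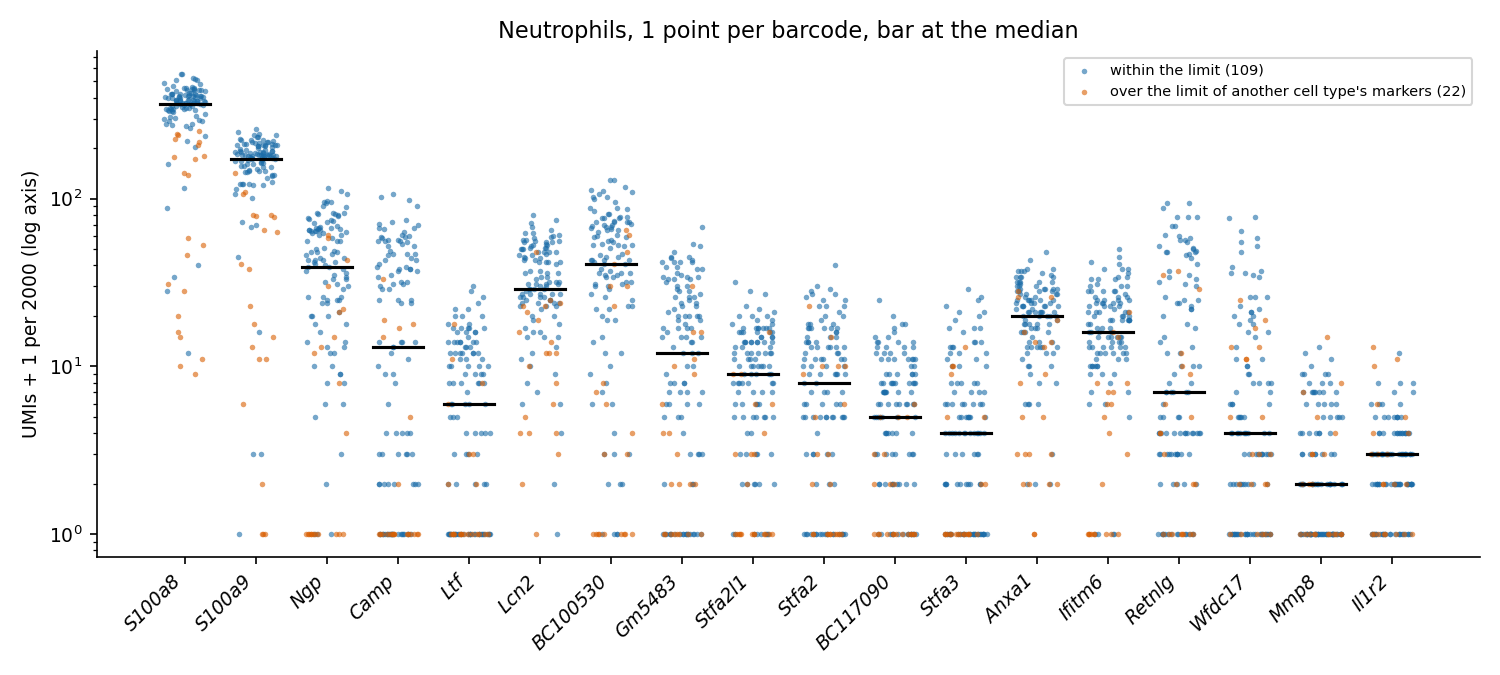
UMIs per 2000 in each of the 131 neutrophils (y, plus 1, log axis) for 18 genes (x), with a bar at the median. Members over the limit of another cell type's markers (22, orange) include 11 of the 15 with the lowest S100 shares, the other 109 are blue, and over all members Camp, Retnlg and Wfdc17 run from 0 to 105, 93 and 77 UMIs.

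To place these cells among the myeloid cells of the same brain, their summed UMIs were set against those of the 1245 mononuclear phagocytes (Csf1r at least 2 and Lyz2 at least 10 UMIs, with few microglial, receptor-gate and carcinoma-gate UMIs). Both classes were cut by counts, so the ratios are descriptions, and the gate genes of both were left out. Of 5885 genes with at least 20 CPM in either class, 256 (4.35%) were more than 4-fold higher in neutrophils and 524 (8.9%) more than 4-fold lower, and the median gene stood at -0.56 on the log2 scale. The highest ratios were those of BC117090, Camp, Ngp, Stfa3, Gm5483, Stfa2, BC100530, Orm1, Stfa2l1 and Ceacam10, of which 6 are stefins and Camp and Ngp secondary granule genes. The lowest 10 by ratio were Pf4, Cxcl13, Ccl8, Dnase1l3, Art2a-ps, Hpgds, Col14a1, Rnase2a, Etv5 and Tlr12, of which Pf4, at 108 CPM in mononuclear phagocytes and 0 UMIs in members, was at least 29.6-fold lower. Dividing by totals without the 20 highest genes raised the median gene by 0.74 and moved the share of calls on the higher side from 32.8% to 65.8%. List medians are therefore read beside the median of all genes.

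Stefin A genes had the highest median of the 21 lists. They encode small inhibitors of cathepsin-type cysteine proteases and lie in 1 cluster on chromosome 16, BC100530 at 36359382 to 36367748 on the minus strand by GENCODE M21 on GRCm38. Of 8 genes of the list that could be compared, 7 were more than 4-fold higher in neutrophils, with a list median of 9.02 on the log2 scale (9.59 above the median gene). Stfa2 was at 3771 CPM against 6.90 in mononuclear phagocytes (log2 ratio 9.08, 95% interval 8.71 to 9.51). BC117090 was at 2496 CPM against 3.01 (9.67, 9.12 to 10.34) and Stfa3 at 1994 CPM against 3.39 (9.18, 8.66 to 9.81). Cstb, the stefin B gene on chromosome 10 that most cell types use, went the other way, at 264 against 1108 CPM (-2.07). Stefin A genes are near-identical copies, so reads could be split between them and the level of each single gene is uncertain.

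Within the members the stefins ran together. All 6 abundant ones (BC100530, Gm5483, Stfa2, Stfa2l1, Stfa3 and BC117090) had a UMI in 92 members, and none in 5, of which 4 were over the limit of another cell type's markers. Over the 131 members the 15 pairs correlated with a Spearman coefficient of 0.54 to 0.83 (median 0.73) on thinned counts, and 0.43 to 0.79 in the 109 members within the limit. These coefficients are over cells of 1 library and shared reads between copies would raise them, which was not tested. Members held 65.9% of all BC100530 UMIs of the library. After thinning, 90.1% of members had a BC100530 UMI, against 8.03% of mononuclear phagocytes, 5.61% of carcinoma cells and 5.57% of oligodendrocytes, cells that should lack it (median depths 5563, 5767, 10659 and 4753 UMIs). Free RNA and barcodes that hold a neutrophil with another cell were not separated in these shares. Unthinned, the share of members was 93.1%.

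Granule genes were high, and each layer had its own spread. Of 15 genes compared of the secondary and tertiary granule list, 12 were more than 4-fold higher than in mononuclear phagocytes, with a median of 3.50 (4.06 above the median gene). The list also holds Padi4 and the leukotriene B4 receptor Ltb4r1, which are not granule proteins. Ltb4r1 is among the 12, its ratio is the list median, and it is counted again among the receptors below. Camp, cathelicidin, was at 14010 against 18.2 CPM (9.58, 9.35 to 9.84), and Ltf, lactoferrin, at 3638 against 15.6 CPM (7.86, 7.61 to 8.14). Cd177 (1295 CPM, 7.83), Pglyrp1 (2194 CPM, 7.92) and Olfm4 (237 CPM, 8.43) belong to the same layer. The granule proteases Mmp8 (857 against 122 CPM, 2.81) and Mmp9 (435 against 40.9 CPM, 3.41) differed less. Itgam, the integrin chain that both cell types carry, was at 275 against 340 CPM, an order that turned without the 20 highest genes in the totals. Thinned, Camp was found in 72.5% of members, against 3.84% of oligodendrocytes and 2.84% of carcinoma cells.

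The 5 measured primary granule genes were all more than 4-fold higher (median 5.49, 6.06 above the median gene), but came from few cells. Elane, neutrophil elastase, was at 320 CPM against 3.76 (6.39, 5.86 to 7.01) and had a UMI in 18 members, Mpo in 11 and Ctsg in 5. Prtn3, proteinase 3, was found in 55 members and also in mononuclear phagocytes (483 against 96.6 CPM, 2.32), and Ms4a3 in 29 members. Of the 913 UMIs of these 5 genes, 86.4% lay in 17 members with at least 10 of them, and 273 in a single member. Elane was at 1550 CPM in those 17 and 13.7 CPM in the other 114.

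The 17 members also differed in other genes of the maturation order, of which only Retnlg took part in the gate. Mki67, a nuclear protein of dividing cells, was at 488 CPM in them and 200 CPM in the other 114, with a UMI in 15 of 17 and 35 of 114. Cebpe was at 397 against 126 CPM, and Fcnb, a ficolin of immature granulocytes, at 671 against 126 CPM. Retnlg, found in 13 of 17 with at most 27 UMIs, was at 861 CPM against 8317 CPM, and Wfdc17 at 250 against 4274 CPM. The 17 held a median of 8417 UMIs against 5438, and 3 of them were over the limit of another cell type's markers. Without these and the 19 of the other 114 over that limit, the Mki67 levels were 551 and 219 CPM and the Retnlg levels 1054 and 9206 CPM. Retnlg counted toward the gate, so cells low in it were under-represented by the choice of members.

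More cells with primary granule RNA lay just outside. The receptor limit alone stopped 70 barcodes, of which 17 held at least 10 UMIs of the 5 genes. In those 17, Elane was at 5939 CPM, Mpo at 4034, Prtn3 at 5407 and Mki67 at 607 CPM, with a median of 774 S100a8 plus S100a9 UMIs and a Retnlg level of 97.5 CPM. Over the whole library the members held 14.7% of Elane UMIs and 65.5% of Camp UMIs. The gate thus took in a larger share of the library's Camp RNA than of its Elane RNA.

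Cell division genes were higher in neutrophils than in mononuclear phagocytes for 14 of 14 genes, 2 of them more than 4-fold, with a median of 1.30 (1.86 above the median gene). All 14 were also higher by per-cell CPM and without the 20 highest genes, and 13 of 14 with at least 8 receptor-gate UMIs. Hmgb2, a chromatin protein of dividing cells, was at 1651 against 208 CPM (2.99, 2.89 to 3.10), Mki67 at 258 against 77.5 CPM (1.74) and Top2a at 159 against 69.1 CPM (1.21). Thinned, Mki67 was found in 22.9% of members, 11.5% of mononuclear phagocytes, 18.0% of carcinoma cells and 2.85% of oligodendrocytes.

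**Figure D3:**
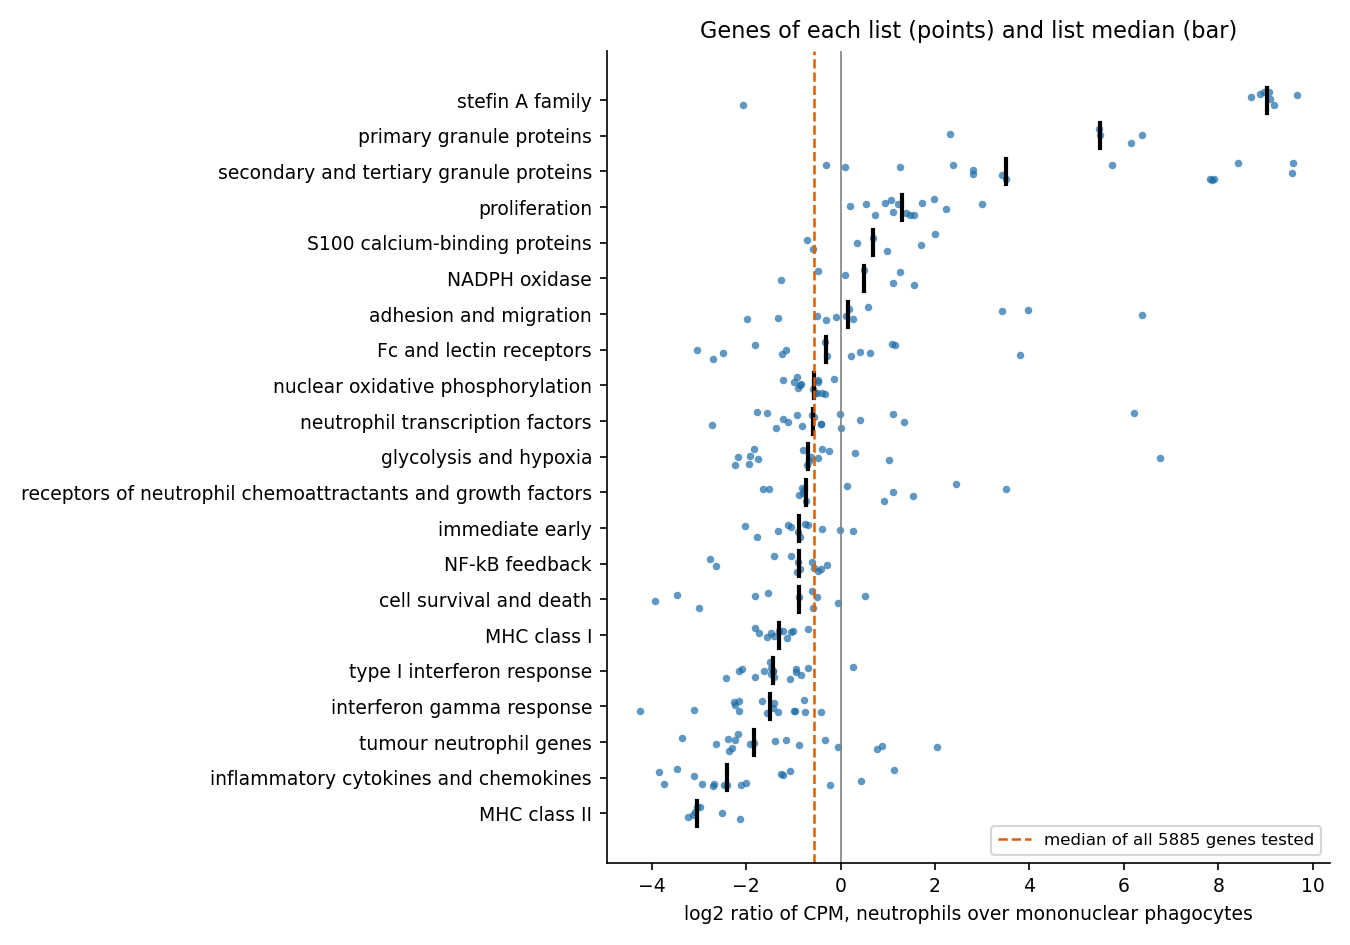
Log2 ratio of CPM, neutrophils over mononuclear phagocytes (x), for each gene of 21 lists (points, 1 row per list, bar at the list median). The dashed line marks the median of all 5885 genes at -0.56. Stefin and granule lists lie to the right, and MHC class II, cytokine and interferon lists to the left.

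Receptors and sensing genes were mixed. Of 13 receptors of chemoattractants and growth factors outside the gate, 6 were higher and 7 lower, with 2 more than 4-fold higher. Ltb4r1, the leukotriene B4 receptor, was at 380 against 33.6 CPM (3.50, 3.26 to 3.74) and Fpr2, a formyl peptide receptor, at 565 against 195 CPM (1.54). Il1r2, the decoy receptor of interleukin 1, was at 901 against 814 CPM, and Ccr1 at 348 against 592 CPM. The gate gene Cxcr2 was at 481 CPM. Among Fc and lectin receptors 6 of 14 were higher, led by Trem3 (284 against 20.4 CPM, 3.80), while Clec7a, the beta-glucan receptor, was at 72.9 against 607 CPM (-3.04). Among 12 adhesion genes 7 were higher. Without the carcinoma limit the medians of both these lists, relative to all genes, turned negative (-0.47 and -0.35). Itgb2l, a beta-integrin-like gene, stood at 25.5 against 0.251 CPM on 21 and 2 UMIs.

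The oxidase that makes the respiratory burst was shared between both classes. Of its 7 genes 5 were higher and none was past 4-fold, with a median of 0.49 (1.05 above the median gene). The number higher was 6 without the 20 highest genes, 4 by per-cell CPM and 3 without the carcinoma limit, where the median stood only 0.08 above that of all genes. Cybb, the catalytic chain, was at 962 against 901 CPM, Ncf1 at 340 against 157 CPM (1.12) and Rac2 at 1282 against 435 CPM (1.56). Nuclear genes of oxidative phosphorylation were lower for 14 of 14, but their median of -0.56 was that of all genes, and 8 of 14 were higher without the 20 highest genes in the totals. Of 16 glycolysis and hypoxia genes 13 were lower, 2 of them more than 4-fold, and their median of -0.69 was close to that of all genes. Slc2a3, a glucose transporter, was the only 1 of them more than 4-fold higher, at 87.5 against 0.752 CPM (6.76, 5.67 to 8.36).

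Transcription factors followed the granule genes in part. Cebpe was at 180 against 2.38 CPM (6.21, 5.54 to 7.01) and Cebpd at 164 against 65.2 CPM (1.34). Cebpa, the factor of early myeloid cells, was at 8.51 against 60.4 CPM (-2.73, on 7 UMIs in members). Spi1, which encodes PU.1, was at 535 against 403 CPM (0.41). Over the list, 5 of 18 were higher and the median of -0.58 was close to that of all genes, while 10 of 18 were higher without the 20 highest genes in the totals.

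Cytokines and antigen presentation were low beside mononuclear phagocytes. Of 17 cytokine and chemokine genes 15 were lower and 10 of them more than 4-fold, with a median of -2.40 (-1.84 from the median gene). Il1b, interleukin 1 beta, was found in 65 members with at most 28 UMIs, at 400 against 1595 CPM (-1.99, -2.16 to -1.84), and Cxcl2 at 280 against 675 CPM (-1.27). Il1a was at 13.4 against 201 CPM (-3.84). Tnf (54.7 against 40.8 CPM) and Osm (188 against 221 CPM) differed little, and Osm was higher without the 20 highest genes in the totals. All 7 MHC class II genes were more than 4-fold lower (median -3.04, -2.47 from the median gene), and all 11 MHC class I genes were lower but within 4-fold (median -1.29, -0.73 from the median gene). Of the response genes of interferon gamma 16 of 16 were lower (median -1.49, -0.93 from the median gene). Of those of type I interferon 16 of 17 were lower (median -1.43, -0.87 from the median gene), 3 of them more than 4-fold, with Oas3 at 0.26. Without the 22 members over the limit of other cells' markers, 8 type I interferon genes were more than 4-fold lower, and Il1b stood at 303, Cxcl2 at 221 and Cd74 at 1465 CPM in place of 1789. Without the 20 highest genes in the totals these were 15 of 16 and 16 of 17, and 5 of the 7 MHC class II genes stayed past 4-fold.

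The list of genes reported in tumour-associated neutrophils did not move as 1 group. Of 17 compared, 14 were lower than in mononuclear phagocytes and 7 more than 4-fold (12 and 1 without the 20 highest genes in the totals), among them Arg1, arginase 1, at 162 against 1673 CPM (-3.37) and Cd274, which encodes PD-L1, at 49.8 against 180 CPM (-1.83). Wfdc17, a whey acidic protein family gene, went the other way at 3473 against 839 CPM (2.05, 1.99 to 2.11). It was found in 116 members with 0, 8 and 151 UMIs.

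Against carcinoma cells the contrast was wider, and 590 of 6573 genes (8.98%) were more than 4-fold higher and 1207 (18.4%) more than 4-fold lower, with the median gene at -0.89. All 14 Fc and lectin receptors, all 7 oxidase genes and 11 of 12 receptors were more than 4-fold higher there. Of 16 cytokine and chemokine genes 10 were higher, 8 of them more than 4-fold, and 6 lower, 3 of them more than 4-fold. Their median was 1.61 (2.51 above the median gene). Of 16 tumour neutrophil genes 12 were higher, 6 of them more than 4-fold. All 6 MHC class II and all 11 MHC class I genes compared were lower, within 4-fold. Lcn2, lipocalin 2, which carcinoma cells also made, was at 16140 against 2281 CPM (2.82), so it marked neutrophils less than Camp (9.77) or Ngp (9.82). Anxa1 was shared too, at 9608 against 1859 CPM (2.37).

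Among the members, 145 of 1048 genes with a thinned mean of at least 0.2 UMIs had a variance at least 2 times their mean. Outside the gate genes the highest included Apod, Ptgds, Camp, BC100530, Wfdc17, Ngp, Ly6a, Cd74 and Mgp. Apod and Ptgds are genes of oligodendrocytes and of cells around vessels, and reached 340 and 151 UMIs per 2000 in single members. Apod had a UMI in 85.5% of thinned members and Ptgds in 29.0%. Camp, Ngp, BC100530 and Wfdc17 had a UMI in 72.5% to 90.1%.

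Ranked by thinned UMIs of Camp, Ngp and Ltf, the members formed a gradient. The upper 43 held 107 to 228 of these UMIs per 2000, the middle 45 held 24 to 105 and the lower 43 held 0 to 23. Mki67 was at 451, 215 and 23.2 CPM in that order, and Cebpe at 324, 148 and 4.65 CPM. Retnlg ran the other way at 2497, 7036 and 13089 CPM, as did Wfdc17 at 762, 2569 and 8745, Mmp8 at 213, 988 and 1654, and Il1b at 77.2, 180 and 1176 CPM. BC100530 was highest in the middle, at 19827, 27980 and 11746 CPM. S100a8 stood at 187139, 170019 and 99570 CPM. Camp ranked the members, and S100a8 and Retnlg took part in the gate, so the places of these 3 genes are a description only.

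Between the upper and lower 43 members, 53 of 1965 genes (2.7%) were more than 4-fold higher in the upper and 194 (9.87%) more than 4-fold lower, with the median gene at -0.38. Of 13 cell division genes compared, 13 were higher and 11 of them more than 4-fold (median 2.90). All 9 cytokine genes compared and all 9 tumour neutrophil genes compared were lower, 6 of each more than 4-fold. The lower 43 included 16 of the 22 members with other cells' markers and the upper 43 none, and macrophage markers stood at 3299 CPM in the lower and 694 in the upper. Among the 109 members within the limit, split again, Mki67 was at 459 CPM in the upper and 17.5 in the lower, Retnlg at 1791 and 18967, Wfdc17 at 664 and 10648, Ifitm1 at 114 and 3419, and Il1b at 37.9 and 932 CPM. Elane changed sides, from a log2 ratio of 4.88 to -0.88 in that subset. Cd74 (508 and 4043 CPM) and H2-Aa (121 and 1707 CPM), genes of MHC class II presentation, stayed higher in the lower members of that subset, and what part RNA of other cells has in them was not tested. Some of the 109 still held under 5% of their UMIs in S100a8 and S100a9 (lowest 0.786%). These lay among the members of lowest Camp, Ngp and Ltf sum, so the lower side of that subset includes doubtful neutrophils.

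**Figure D4:**
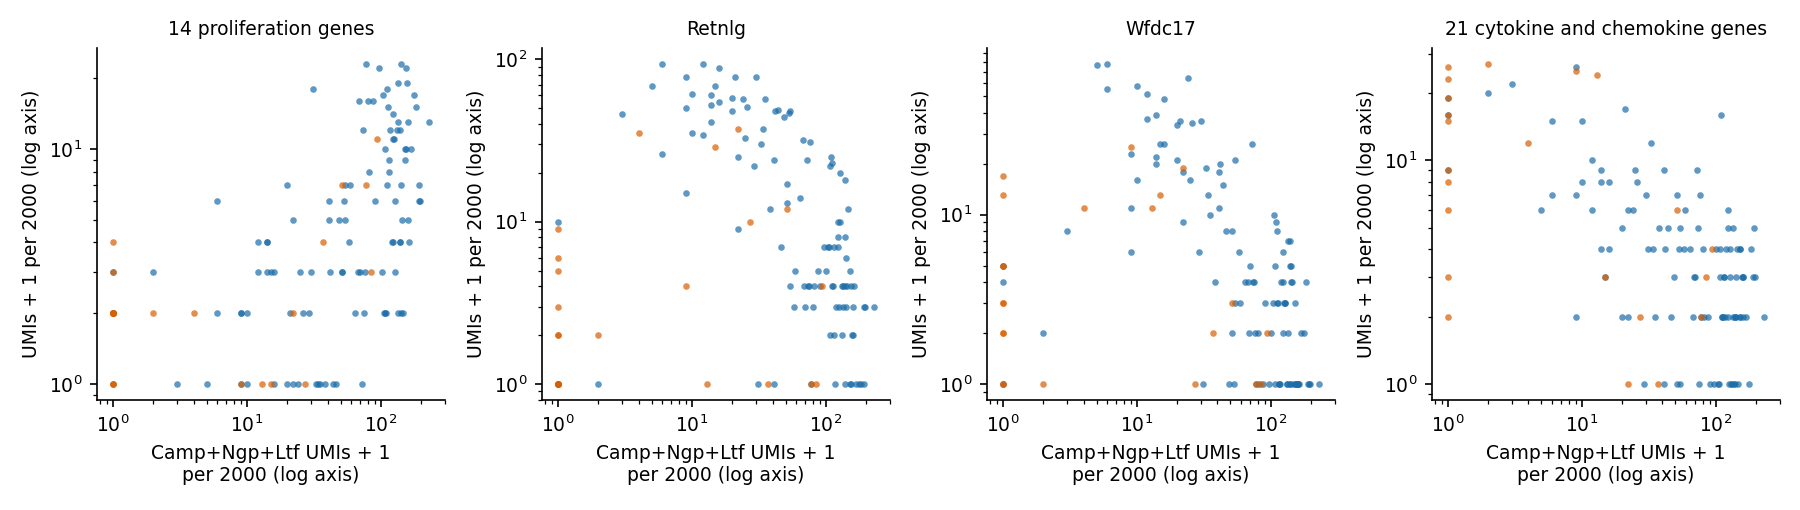
UMIs per 2000 of Camp, Ngp and Ltf together (x) against those of 14 cell division genes, Retnlg, Wfdc17 and 21 cytokine and chemokine genes (y, 1 panel each), all plus 1 on log axes, 1 point per neutrophil. The 22 members over the limit of another cell type's markers are orange and lie mostly at low x. Division genes rise with x, and Retnlg and Wfdc17 fall among the other 109 members.

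Over the 131 members the Spearman coefficient of the Camp, Ngp and Ltf sum was 0.64 with division genes, -0.33 with Retnlg, -0.51 with Wfdc17 and -0.58 with the cytokine list. In the 109 members within the limit it was 0.59, -0.62, -0.67 and -0.55. Retnlg and Wfdc17 rose together (0.64, and 0.69 in the 109). Retnlg took part in the gate, so its coefficients describe only the members so chosen. These coefficients are over cells of 1 library, given as a description, and the granule sum also correlated with the UMIs of a member (0.43, and 0.51 in the 109).

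Ranked by the cytokine list instead, the upper 43 members held 5 to 26 of its UMIs per 2000 and the lower 43 held 0 to 1. Of 1967 genes 80 (4.07%) were more than 4-fold higher in the upper members and 52 (2.64%) more than 4-fold lower. All 12 division genes compared were lower, 9 of them more than 4-fold, and all 6 MHC class II genes were more than 4-fold higher. The highest by ratio were Retnla, Gzmc, Gm5960, Ms4a8a and Ly6i and the lowest Ackr1, Elane, Vwf, Hist1h2ae and Emcn, of which Ackr1, Vwf and Emcn are endothelial genes. Macrophage markers stood at 3659 CPM in the upper and 1039 in the lower members, and 12 and 5 members were over the limit. Among the 109 within the limit Arg1 (log2 ratio 3.47) and Saa3 (3.46) were still higher. Ccl6 (3.65) belongs to the list that ranked the members, so its place is a description only. Ranked by type I interferon genes, 101 of 2018 genes (5%) were more than 4-fold higher and 10 (0.496%) more than 4-fold lower, with Ackr1, Slco1a4, Vwf and Gm5960 among the highest. There 16 of the upper members were over the limit, and the count of higher genes was 38 among the 109.

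The same gates found 12 neutrophils among the 10417 barcodes of the titled control library (0.115%, 0.0595 to 0.201%), where the carcinoma limit removed none. They held 64957 UMIs in all, with a median of 4092.5 UMIs and 1226.5 genes. S100a8 had 122, 864.5 and 1989 UMIs as lowest, median and highest, beside 15, 890 and 2927 in the titled positive library, and chose the cells in both. Of 724 genes with at least 200 CPM on either side, 60 (8.29%) were more than 4-fold higher in the titled positive members and 92 (12.7%) more than 4-fold lower. The lower side held all 6 astrocyte genes and 6 of the 7 oligodendrocyte genes compared: the oligodendrocyte list stood at 12824 CPM in the 12 and 1670 in the 131, and the astrocyte list at 2509 and 36.5 CPM, and the part of this RNA in the other differences was not tested. The 2 libraries are 1 sample each, and library and group cannot be told apart.

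Stefins were nearly absent from the 12. BC100530 had 1 UMI in 1 of them, 15.4 CPM against 20521 (log2 ratio 9.80, 7.90 to 15.68). Stfa2 and Stfa3 had none, which makes them at least 81.7-fold and 43.2-fold higher in the titled positive members with the control at 3 UMIs. Gm5483 had 18 UMIs in 1 barcode and Stfa2l1 had 6 and 8 UMIs in 2. The BC100530 UMI and the Gm5483 UMIs lay in different barcodes, and both barcodes had no UMI of Ngp, Camp or Ltf. BC117090 is not listed in the gene table of that library. The whole titled control library held 3 BC100530 UMIs, against 25605 in the titled positive library. For Gm5483 these totals were 31 and 8684, for Stfa2l1 23 and 5053, for Stfa3 8 and 2403 and for Stfa2 3 and 4597. The Stfa3 UMIs of the titled control library lay in 1 barcode outside the 12. Thus 122 of 131 members and 1 of 12 had BC100530, and the values of both libraries overlapped only between 0 and 1 UMI.

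Other genes went both ways. Il1r2 had 1 UMI in 1 of the 12 and was found in 121 of 131 (15.4 against 901 CPM), and Wfdc17 had 1 and 3 UMIs in 2 of the 12 and was found in 116 (61.6 against 3473 CPM). Cd74 had 1 UMI in each of 2 barcodes against 124 of 131 members with a UMI. In the titled positive library Cd74 was at 1789 CPM in members, 1012 in oligodendrocytes and 2904 in carcinoma cells. What part RNA of other cells has in the Cd74 of members was not tested. Lyz2, lysozyme, was higher in the 12, at 17473 against 3440 CPM, with 1, 78.5 and 251 UMIs against 0, 13 and 139. Ly6g, a surface marker of mouse neutrophils, was at 1832 against 298 CPM (5.5 against 1 UMI as the median), Mmp8 at 3279 against 857 CPM, Ltf at 10915 against 3638 CPM and Camp at 35085 against 14010 CPM. Over the secondary and tertiary granule list, 10 of 16 genes were higher in the 12 and 6 lower, and 1 was past 4-fold higher in the 12, below the 12.7% of all genes. Camp was at 0 in 4 of the 12 and at 22 to 528 UMIs in the rest. Elane and Mki67 had 0 UMIs in the 12 and 263 and 212 in the members, at least 6.92-fold and 5.58-fold higher by the same floor. For Elane this rests on the 17 members with primary granule RNA, which held 254 of the 263 UMIs, since the other 114 stood at 13.7 CPM, under the control floor of 46.2 CPM.

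**Figure D5:**
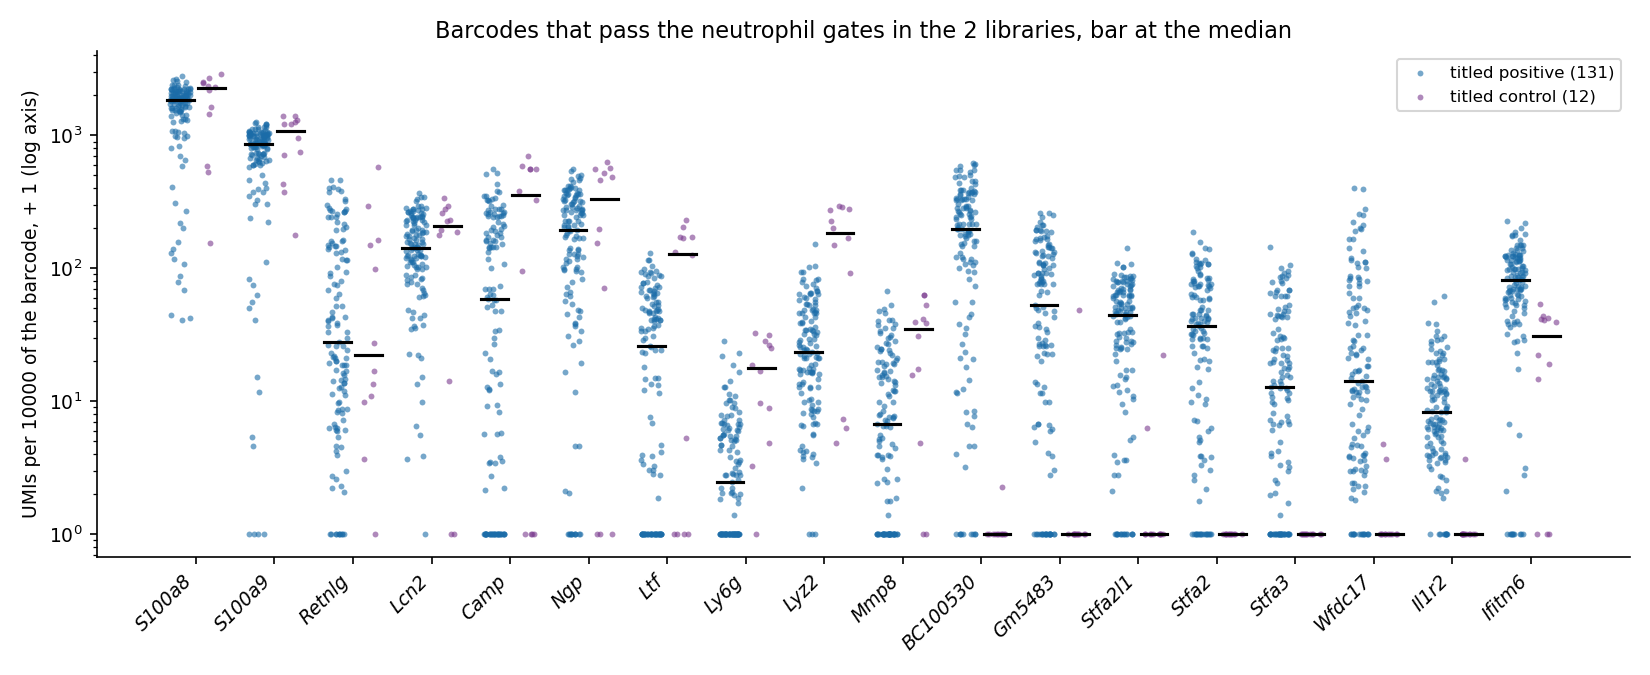
UMIs per 10000 of a barcode (y, plus 1, log axis) for 18 genes (x) in the 131 neutrophils of the titled positive library (blue) and the 12 barcodes that passed the same gates in the titled control library (purple), with bars at the medians. Calprotectin genes overlap, Ly6g, Lyz2 and Mmp8 sit higher in the 12, and BC100530, Stfa2, Stfa3, Wfdc17 and Il1r2 sit at or near 0 in them.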

How the data were processed

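Raw UMI counts per gene and barcode were deposited by the authors, made with Cell Ranger (no version given) on GRCm38, per the submitters' processing notes. For annotation release, cell calling and strand setting, nothing is given in the sources used here, so overlapping and antisense genes cannot be told apart. Each library's gene table lists only genes with a UMI, and libraries were compared over genes listed in both. The members, gene lists, comparison classes and the ranking by Camp, Ngp and Ltf were chosen with earlier results of these data known. UMIs were summed per class and scaled to CPM (1000000 UMIs), and log2 ratios used a pseudocount of 0.5 UMIs, with exact conditional binomial 95% intervals. Called means past 4-fold. Thinning drew 2000 UMIs per barcode without replacement (seed 1). Doublets were called with Scrublet in scanpy 1.11.5 on the titled positive library and kept in the main values. Tools were numpy 2.4.6, scipy 1.17.1 and pandas 2.3.3. Ratios, intervals and thinning were tested on simulated data. Named genes are the 10 of highest level, the 10 highest and 10 lowest ratios with at least 100 UMIs in the sum of the higher class, list members by role, the 10 most variable genes and the 5 extremes of each ranking with at least 30 UMIs; genes at 0 are given as bounds from a floor of 3 UMIs over the class. A few genes that this rule names are not reported here.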

Additional observations from a re-analysis of the deposited data

How the results depend on the processing

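The number of neutrophils was 179 without the carcinoma limit, 61 with at most 2 carcinoma-gate UMIs, 100 with at least 8 receptor-gate UMIs, 96 with the gates on thinned counts (82 of them members) and 109 without members over the limit of other cells' markers, an alternative chosen after seeing the data. Against mononuclear phagocytes, genes past 4-fold higher and lower numbered 532 and 276 without the 20 highest genes in the totals, and 146 and 328 with a 50 CPM minimum. Lower genes numbered 277 with a pseudocount of 5, 915 with free RNA subtracted and 805 without other cells' markers. Against carcinoma cells the counts were 994 and 575 without the 20 highest genes and 335 and 648 with a 50 CPM minimum, and lower genes numbered 24 without the carcinoma limit, 540 with a pseudocount of 5 and 531 with free RNA subtracted. The free RNA estimate for carcinoma cells was 135% of their UMIs, so this last count cannot be interpreted. The profile subtracted was the sum over all barcodes of the titled positive library, scaled by carcinoma markers outside the gate. It includes RNA of the compared cells themselves. All values with free RNA subtracted, here and below, therefore show only how the results move under this profile.

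List medians minus that of all genes moved as follows. Primary granules: 5.12 with at most 2 carcinoma-gate UMIs, 5.20 with 8 receptor-gate UMIs, 4.85 without the carcinoma limit, 7.62 with free RNA subtracted. Secondary and tertiary granules: 4.48 with 8 receptor-gate UMIs, 2.97 without the carcinoma limit, 7.20 with free RNA subtracted, 4.40 without other cells' markers. Stefins: 8.56 without the carcinoma limit and 11.56 with free RNA subtracted. Cytokines: -2.61 with at most 2 carcinoma-gate UMIs. MHC class II: -3.05 with at most 2 carcinoma-gate UMIs, -2.31 with 8 receptor-gate UMIs, -2.72 without the carcinoma limit, -2.37 with per-cell CPM, -2.68 with a pseudocount of 5, -2.84 with free RNA subtracted. Division genes: 2.48 with free RNA subtracted and 2.23 without other cells' markers. Without the carcinoma limit the medians of adhesion genes (-0.35) and of Fc and lectin receptors (-0.47) changed sign, and the cause was not tested.

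Between upper and lower members, higher and lower genes by the cytokine ranking numbered 34 and 21 with at most 2 carcinoma-gate UMIs, lower genes 27 when split at the median rank, and higher genes 42 without other cells' markers. By the interferon ranking they numbered 32 and 3 with at most 2 carcinoma-gate UMIs, and 38 and 2 without other cells' markers. By the granule ranking they numbered 29 and 87 with at most 2 carcinoma-gate UMIs, and 22 and 71 without other cells' markers. Fewer members also means fewer genes past the minimum. No paired analysis was possible because each group has 1 library. Of the values that answer a comparison, 79 stayed within their limits under an alternative and 50 moved.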

Other observations

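Outside the gates, 61 barcodes of the titled positive library held at least 10 UMIs of Elane, Mpo, Prtn3, Ctsg and Ms4a3 together, with a median of 17 S100a8 plus S100a9 UMIs and 1 receptor-gate UMI. They held 1353 of the 1795 Elane UMIs of the library, and the highest of them held 1375 UMIs of the 5 genes. Kit, a receptor of early blood progenitors, had no UMI in them or in the members. Cd34, read beside Kit, was at 10.3 CPM in the 61 barcodes and 7.29 CPM in the members.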
